A study of Mus musculus with 12 samples.

Results

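The genes described here encode the kainate and AMPA glutamate receptors of the mouse, with 1 scaffold protein. They are the 5 kainate receptor subunit genes Grik1 to Grik5, the 4 AMPA receptor subunit genes Gria1 to Gria4, and Grip2, which encodes a PDZ protein that binds the tails of AMPA receptor subunits. These 10 genes of the 35583 in the files were chosen by name. Their level in each library and their difference between Q84 and WT ganglia were part of the choice, so every Q84 against WT value of a member is a description and gives no independent support to a difference. All 10 passed the filter on low counts in every fit.

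The tissue was dorsal root ganglion, the swelling on each spinal nerve that houses sensory neurons, taken from mice at an age of 24 weeks. Mice of the YAC Q84 line, here Q84, hold the human gene ATXN3 with an expanded CAG repeat on a yeast artificial chromosome, YAC for short, and serve as a model of spinocerebellar ataxia type 3 (SCA3). The transgene comes on top of the mouse gene Atxn3, and the WT mice have no transgene. There were 6 Q84 libraries (1 male, 5 female) and 6 WT libraries (3 male, 3 female). Strain, zygosity and whether each library is a separate animal are not given in the sources used here, so the spread behind each p-value is that between libraries and may be partly technical.

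Ionotropic glutamate receptors are assemblies of 4 subunits around an ion channel. AMPA receptors carry most fast excitatory transmission in the central nervous system, and the subunit encoded by Gria2 sets whether the channel lets calcium through. Kainate receptors are built from the subunits GluK1, GluK2 and GluK3 (genes Grik1, Grik2 and Grik3), which can form channels alone. GluK4 and GluK5 (Grik4 and Grik5) need one of those partners. In sensory neurons, GluK1 is known as the main kainate receptor subunit of small neurons whose thin fibres carry pain and itch signals. Since kainate and AMPA receptors sit on the central and peripheral ends of these neurons, their RNA is made in the ganglion.

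Several members are spliced into forms whose levels are given with the results, and the stretches that tell these forms apart are shown first. They come from the GENCODE M21 transcripts (build GRCm38), which matched the files by identifier and by length for all 64 transcripts of the members. Each is written 5′ to 3′ along the transcript. AMPA receptor genes use either a flip or a flop exon of 115 bases, which changes how fast the receptor closes under glutamate. For Gria2 (chromosome 3, minus strand) this is exon 14, coding sequence at bases 2743 to 2857 of each transcript, and the capitals mark the 36 bases at which the forms differ.
Gria2 flip exon: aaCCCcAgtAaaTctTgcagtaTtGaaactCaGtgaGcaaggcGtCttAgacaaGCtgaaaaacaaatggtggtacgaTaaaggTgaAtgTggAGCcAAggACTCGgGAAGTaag
Gria2 flop exon: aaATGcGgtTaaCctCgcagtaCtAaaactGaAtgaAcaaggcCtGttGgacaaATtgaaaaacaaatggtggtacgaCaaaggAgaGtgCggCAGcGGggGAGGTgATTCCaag

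Grik1 (chromosome 16, minus strand) has a form with an extra exon of 45 bases, exon 9 of the transcript Grik1-211. The capitals below are that exon, between 30 bases of each neighbouring exon, and Grik1-201 joins the same neighbours directly.
Grik1-211 insert: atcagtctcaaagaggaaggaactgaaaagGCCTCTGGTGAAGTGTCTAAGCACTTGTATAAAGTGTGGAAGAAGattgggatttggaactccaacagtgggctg
Grik1-201 junction: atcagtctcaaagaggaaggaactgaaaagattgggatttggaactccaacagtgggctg

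Gria4 (chromosome 9, minus strand) has a short form, Gria4-203, with 1299 coding bases against 2706 in the full-length Gria4-202, and it ends before the flip and flop exons. The capitals mark the 30 bases after the point where these 2 transcripts part, within exon 11 of Gria4-203 and at the same place in Gria4-202.
Gria4-203 own end: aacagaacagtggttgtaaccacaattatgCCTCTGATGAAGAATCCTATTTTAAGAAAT
Gria4-202 same place: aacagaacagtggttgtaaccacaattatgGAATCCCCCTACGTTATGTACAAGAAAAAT

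Per library, 66490481 to 86891563 estimated counts were deposited, over 116313 transcripts. A 1000-base transcript of mouse Atxn3, named Atxn3-205, checks the labels. It had 71.4 ± 6.14 TPM, a level scaled for transcript length and depth, in 5 of the Q84 libraries and 0.110 ± 0.151 TPM in 5 of the WT libraries (SD, n = 5 each). The library labelled Q84 female 5 had 0.0612 TPM and the library labelled WT female 2 had 34.0 TPM, so both went against their labels. They were moved to no other group. Means and the 10-library comparison leave them out (5 Q84 libraries, 1 male and 4 female, against 5 WT libraries, 3 male and 2 female), they are shown apart for every gene in the plot of CPM and in the text where they bear on a result, and the 12-library comparison keeps them as labelled.

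Read per transcript length over the 12 libraries, the scaffold gene Grip2 had the highest mean level, 172 TPM (SD 26.1), followed by Grik1 with 76.3 TPM (SD 48.8). Gria4 averaged 52.5 TPM (SD 10.05), Gria2 13.7 TPM, Gria3 10.7 TPM and Grik2 9.70 TPM. Gria1 averaged 4.62 TPM and Grik4 3.94 TPM, while Grik5 (0.435 TPM) and Grik3 (0.192 TPM) were near the bottom of what was counted, with 42 to 107 and 59 to 126 counts per library. Neighbours in this order were often not separated. Grik1 was above Gria4 in 7 of the 12 libraries, Gria2 above Gria3 in 10, Gria3 above Grik2 in 9 and Gria1 above Grik4 in 9, whereas Gria4 was above Gria2 and Grik2 above Gria1 in all 12. The place of Gria4 rested on its short transcript Gria4-203, without which it averaged 15.5 TPM. It was then below Gria2 in Q84 female 1 (14.97 against 16.46 TPM) and Q84 female 3 (12.12 against 12.35 TPM), and above it in the others. The place of Grik1 depended on the group: its lowest level, 21.3 TPM, was in a Q84 library and its highest, 151 TPM, in a WT library.

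Among the kainate receptor subunits, Grik1, for GluK1, differed most between the groups. In CPM, counts scaled for depth with TMM factors so that 1 gene can be compared between libraries, it had 76.6 CPM in the Q84 male and 64.8, 61.7, 55.6 and 57.7 CPM in Q84 females 1 to 4, against 174, 290.1 and 330 CPM in the WT males and 234 and 289 CPM in WT females 1 and 3. The 5 Q84 libraries sat close together and every one was below the lowest WT library, WT male 1. The mean was 63.3 ± 8.25 CPM in Q84 and 263 ± 60.5 CPM in WT (SD, n = 5 each), 0.240 of the WT mean. With 289.6 CPM, the library labelled Q84 female 5 lay inside the WT range, and the library labelled WT female 2, with 161 CPM, lay just below it. Fitted with sex as a covariate, Grik1 fell in Q84 by a log2 change of -2.002 (SE 0.169), past the threshold of 0.05 over all genes (adjusted p = 6.56e-05, edgeR's quasi-likelihood test). With 12 libraries as labelled the value was -1.29 (SE 0.508, adjusted p = 0.288, edgeR). In the 10-library fit, leaving out any 1 library kept the log2 fold change between -2.13 and -1.88, with adjusted p at most 0.000448 by edgeR.

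Grik2, for GluK2, the most widespread kainate subunit in the brain, had 31.6, 27.6, 28.1, 25.3 and 25.6 CPM in the Q84 male and Q84 females 1 to 4, against 29.9, 24.8, 21.4, 23.9 and 24.3 CPM in WT males 1 to 3 and WT females 1 and 3. The groups overlapped, with the male library of Q84 and WT male 1 on top of their groups. Its means were 27.6 ± 2.54 CPM in Q84 and 24.9 ± 3.10 CPM in WT (SD, n = 5 each), and the fitted log2 difference of 0.21 (SE 0.103) was not called. Shown apart, Q84 female 5 had 23.3 CPM and WT female 2 had 27.2 CPM. Grik3, for GluK3, averaged 1.20 ± 0.254 CPM in Q84 and 1.08 ± 0.156 CPM in WT (SD, n = 5 each), a fitted difference of 0.11 (SE 0.208). Its range in Q84, 0.835 to 1.46 CPM, held the whole WT range, and the libraries shown apart had 1.69 CPM (Q84 female 5) and 1.67 CPM (WT female 2).

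The partner-dependent subunits are Grik4, for GluK4, and Grik5, for GluK5. Grik4 had 11.4, 8.76, 9.06, 9.25 and 11.4 CPM in the Q84 male and Q84 females 1 to 4, against 10.4, 17.1, 20.8, 15.0 and 16.03 CPM in WT males 1 to 3 and WT females 1 and 3. All Q84 libraries lay below 4 of the 5 WT libraries, and WT male 1 lay among them. The library labelled Q84 female 5 had 20.7 CPM and the library labelled WT female 2 had 12.5 CPM. The 7 libraries with the lowest Grik1 were also the 7 with the lowest Grik4. Grik4 averaged 9.96 ± 1.30 CPM in Q84 and 15.9 ± 3.75 CPM in WT (SD, n = 5 each), with a log2 change of -0.62 (SE 0.176, adjusted p = 0.0594, edgeR) that missed the threshold. Without WT male 1 the fit gave -0.70, past the threshold (adjusted p = 0.00142, edgeR). The other 9 fits without 1 library did not call Grik4. Over all 10 such fits its log2 fold change ran from -0.70 to -0.55, with adjusted p up to 0.207 by edgeR. Grik5 averaged 1.03 ± 0.360 CPM in Q84 and 0.792 ± 0.214 CPM in WT (SD, n = 5 each), with overlapping groups. Q84 female 5 had 1.37 CPM and WT female 2 had 0.808 CPM. The fitted difference of 0.24 (SE 0.309) was not called, and it turned to -0.10 when counts were scaled for transcript length.

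**Figure D1:**
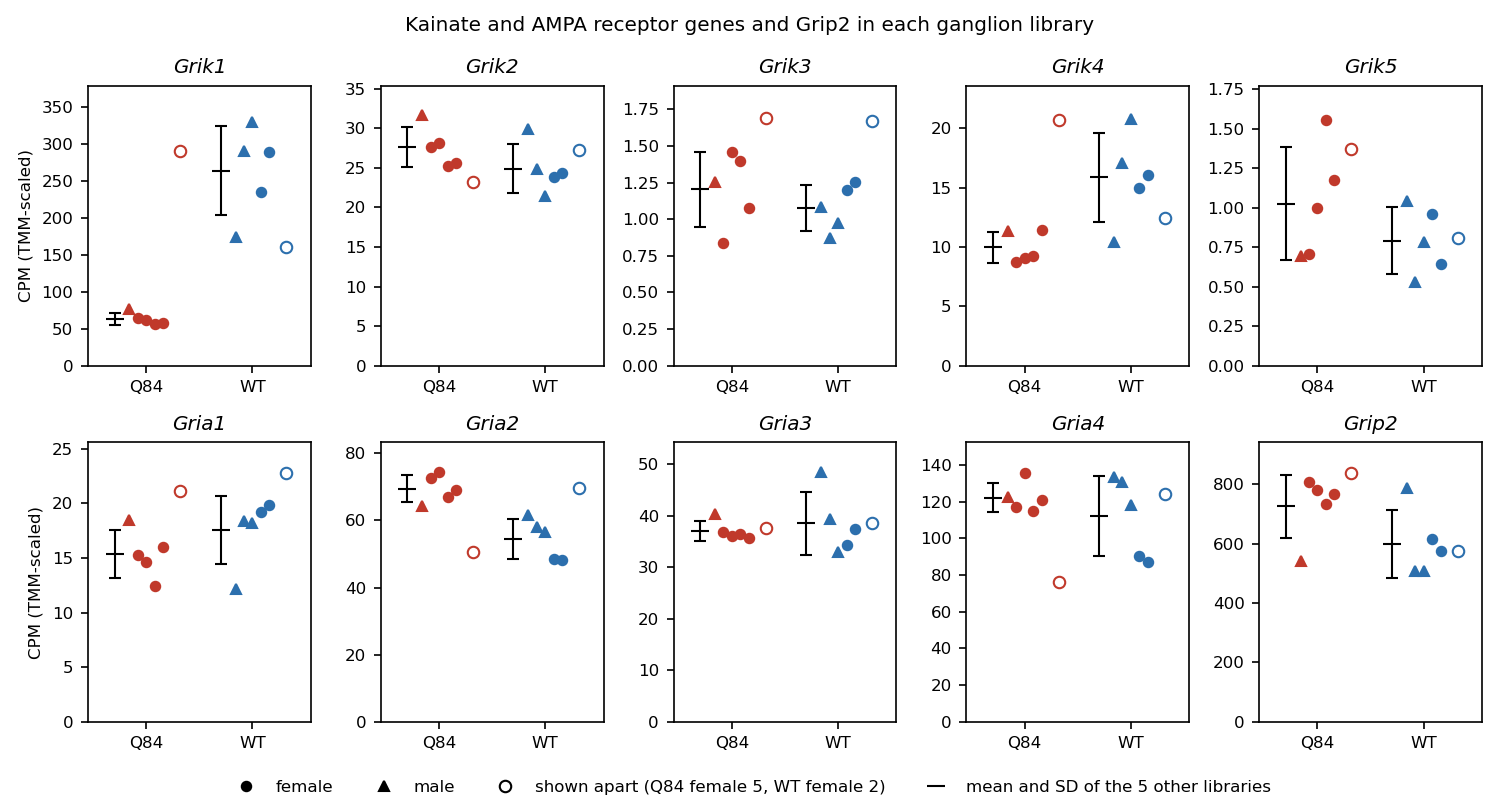
Level of the 10 genes in each ganglion library, in CPM on an axis from 0 in each panel, with Q84 left and WT right. Filled points are the 5 libraries of each group (triangles male, circles female) with their mean and SD as a black bar, and open circles are the libraries labelled Q84 female 5 and WT female 2. Grik1 shows 5 Q84 libraries between 55.6 and 76.6 CPM, below all 5 WT libraries, and Gria2 shows 5 Q84 libraries above all 5 WT libraries.

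Of the AMPA receptor subunits, Gria2, for the subunit GluA2 that limits calcium entry, had 64.4, 72.6, 74.4, 67.0 and 69.0 CPM in the Q84 male and Q84 females 1 to 4, against 61.5, 57.9, 56.5, 48.5 and 48.1 CPM in WT males 1 to 3 and WT females 1 and 3. All 5 Q84 libraries were above all 5 WT libraries, with the Q84 male closest to WT male 1. The libraries shown apart lay on the other side, with 50.5 CPM in the library labelled Q84 female 5 and 69.6 CPM in that labelled WT female 2. The mean was 69.5 ± 4.08 CPM in Q84 and 54.5 ± 5.94 CPM in WT (SD, n = 5 each). Gria2 rose in Q84 by a log2 change of 0.40 (SE 0.0908, adjusted p = 0.0211, edgeR) in the 10-library fit. It had 0.23 (SE 0.120, adjusted p = 0.406, edgeR) with 12 libraries as labelled. Of the fits that left out 1 of the 10 libraries, those without WT female 1 (0.35, adjusted p = 0.0995), without WT female 3 (0.35, adjusted p = 0.125) and without Q84 female 4 (0.40, adjusted p = 0.0533) no longer passed by edgeR.

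Gria4, for GluA4, the most abundant AMPA subunit in these ganglia per length, had 122, 117, 135.5, 115 and 121 CPM in the Q84 male and Q84 females 1 to 4, against 133, 131, 118, 90.6 and 87.1 CPM in WT males 1 to 3 and WT females 1 and 3. These 5 WT libraries split by sex, the males overlapping with Q84 and the 2 females lying below each of the 5 Q84 libraries. With 76.4 CPM, the library labelled Q84 female 5 was lower than any other of the 12, and the library labelled WT female 2 had 124 CPM. The means were 122 ± 8.01 CPM in Q84 and 112 ± 21.9 CPM in WT (SD, n = 5 each), and the log2 fold change of 0.28 (SE 0.105, adjusted p = 0.159, edgeR) was not called. It was past the threshold with females alone (0.47, adjusted p = 0.0110, edgeR), a fit of 4 Q84 and 2 WT libraries, and without Q84 male 1 (0.46, adjusted p = 0.0223, edgeR). Over all 10 fits without 1 library it ran from 0.19 to 0.46.

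Gria1, for GluA1, averaged 15.4 ± 2.19 CPM in Q84 and 17.5 ± 3.09 CPM in WT (SD, n = 5 each), and Gria3, for GluA3, averaged 37.1 ± 1.91 CPM in Q84 and 38.6 ± 6.12 CPM in WT (SD, n = 5 each). Both overlapped between the groups and WT male 1 stood out in each, with 12.1 CPM as the lowest WT value of Gria1 and 48.6 CPM as the highest of Gria3. Their fitted log2 differences were -0.20 (SE 0.153) and 0.01 (SE 0.105), not called. In Q84 female 5 Gria1 had 21.1 CPM and Gria3 37.6 CPM, and in WT female 2 they had 22.7 and 38.6 CPM.

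The scaffold gene Grip2 had 543 CPM in the Q84 male and 807, 779.8, 733 and 767 CPM in Q84 females 1 to 4, against 788, 507 and 509 CPM in the WT males and 616 and 574 CPM in WT females 1 and 3. One male library of each group lay with the other group, Q84 male 1 low and WT male 1 high, while all 4 Q84 females were above both WT females. The library labelled Q84 female 5 had 838 CPM, the highest of the 12, and the library labelled WT female 2 had 575 CPM. The means were 726 ± 106 CPM in Q84 and 599 ± 115 CPM in WT (SD, n = 5 each), with a log2 change of 0.19 (SE 0.150, adjusted p = 0.547, edgeR) that was not called. With females alone it was 0.39 (adjusted p = 0.0302, edgeR), and without WT male 1 it was 0.28 (adjusted p = 0.0312, edgeR). The other 9 fits without 1 library did not call it. Over all 10 such fits it ran from 0.095 to 0.38, with adjusted p up to 0.885 by edgeR.

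In the 10-library comparison edgeR and limma-voom each called 1 of the 10 members higher and 1 lower, and DESeq2 1 higher and 2 lower, Grik4 being the other one. By edgeR this stands beside a background of 1.52% higher and 4.93% lower over the 18721 genes tested (6.45% in either direction). By CPM, the groups did not overlap for 1 member on each side, where 2.71% of all genes lay higher and 5.96% lower in Q84 without overlap. The median log2 fold change was 0.15 over the members and 0.01 over all genes. In the 12-library comparison edgeR called 0 of the 10 members, with 1 at an unadjusted p under 0.05, and DESeq2 and limma-voom also called 0, beside 0.0053% of all 18875 genes. Since the members were chosen with this contrast known, nothing is read from these counts, and the plot of fold changes shows each member's value in both comparisons.

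**Figure D2:**
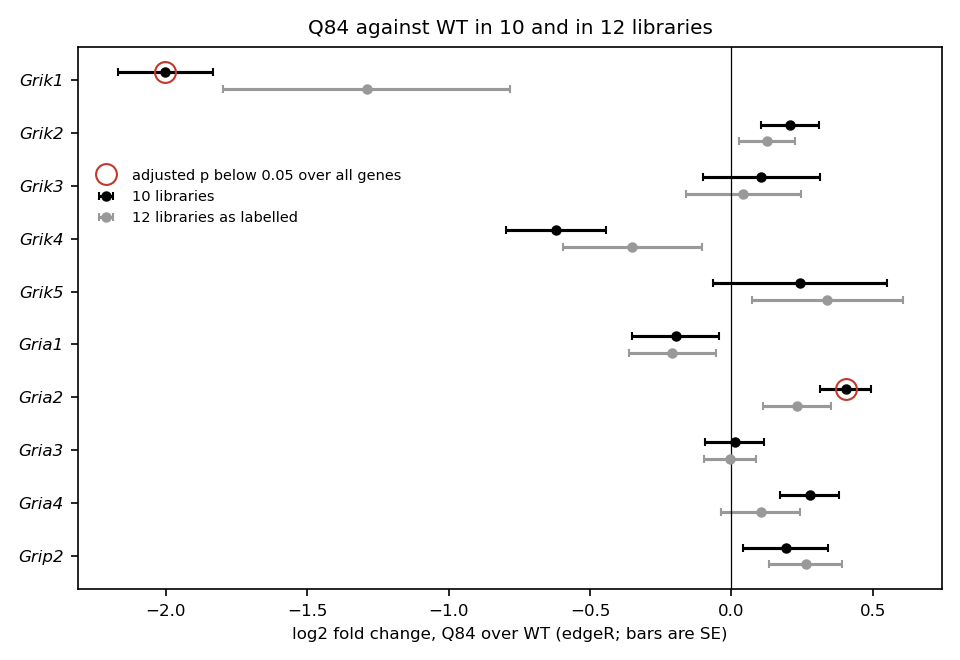
Fitted log2 fold change of Q84 over WT for each member (horizontal axis, bars are the SE), black for the 10 libraries and grey for the 12 libraries as labelled. Ringed points passed the adjusted p threshold over all genes, Grik1 at -2.002 and Gria2 at 0.40, and for both the 12-library value lies closer to 0.

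Summed over the 5 kainate subunit genes, the level was 52.2, 41.0, 39.0, 32.5 and 38.3 TPM in the Q84 male and Q84 females 1 to 4, against 86.6, 147, 167, 117 and 142 TPM in WT males 1 to 3 and WT females 1 and 3. The groups did not overlap, with 133 TPM in the library labelled Q84 female 5 and 90.3 TPM in that labelled WT female 2. Without Grik1 the other 4 kainate genes summed to 13.5 ± 2.08 TPM in Q84 and 14.8 ± 1.26 TPM in WT (SD, n = 5 each), with overlapping groups. Grik1 made up 66.5 ± 1.13% of kainate subunit TPM in Q84 and 88.3 ± 2.498% in WT (SD, n = 5 each). Its share was 65.1 to 67.6% in every one of the 5 Q84 libraries and at least 84.1% in the 5 WT libraries, with 90.0% in the library labelled Q84 female 5 and 82.2% in the library labelled WT female 2.

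AMPA subunit TPM summed to 85.1 ± 7.67 in Q84 and 80.5 ± 11.8 in WT (SD, n = 5 each), and the groups overlapped. Kainate over AMPA, as a ratio of these sums, was 0.475 ± 0.0559 in Q84 and 1.67 ± 0.438 in WT (SD, n = 5 each). All 5 Q84 libraries had more AMPA than kainate subunit RNA per length, as did WT male 1 at 0.976 and the library labelled WT female 2 at 0.946, and the other 4 WT libraries had more kainate than AMPA. The short transcript Gria4-203 made up 46.7 ± 2.84% of AMPA TPM in Q84 and 45.2 ± 2.42% in WT (SD, n = 5 each). Without it the ratio was 0.891 ± 0.0720 in Q84 and 3.02 ± 0.709 in WT (SD, n = 5 each), at 1.01 in the Q84 male and below 1 in the 4 Q84 females, and kainate was above AMPA in all 6 libraries labelled WT. At 2.39, the ratio of the full sums in the library labelled Q84 female 5 was the highest of the 12. Within the AMPA genes, Gria2 made up 17.8 ± 1.11% in Q84 and 15.6 ± 1.103% in WT (SD, n = 5 each), with Q84 values from 16.9 to 19.4% and WT values from 14.5 to 16.8%. Gria4 made up 65.3 ± 1.81% in Q84 and 64.3 ± 3.48% in WT (SD, n = 5 each), and these overlapped.

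**Figure D3:**
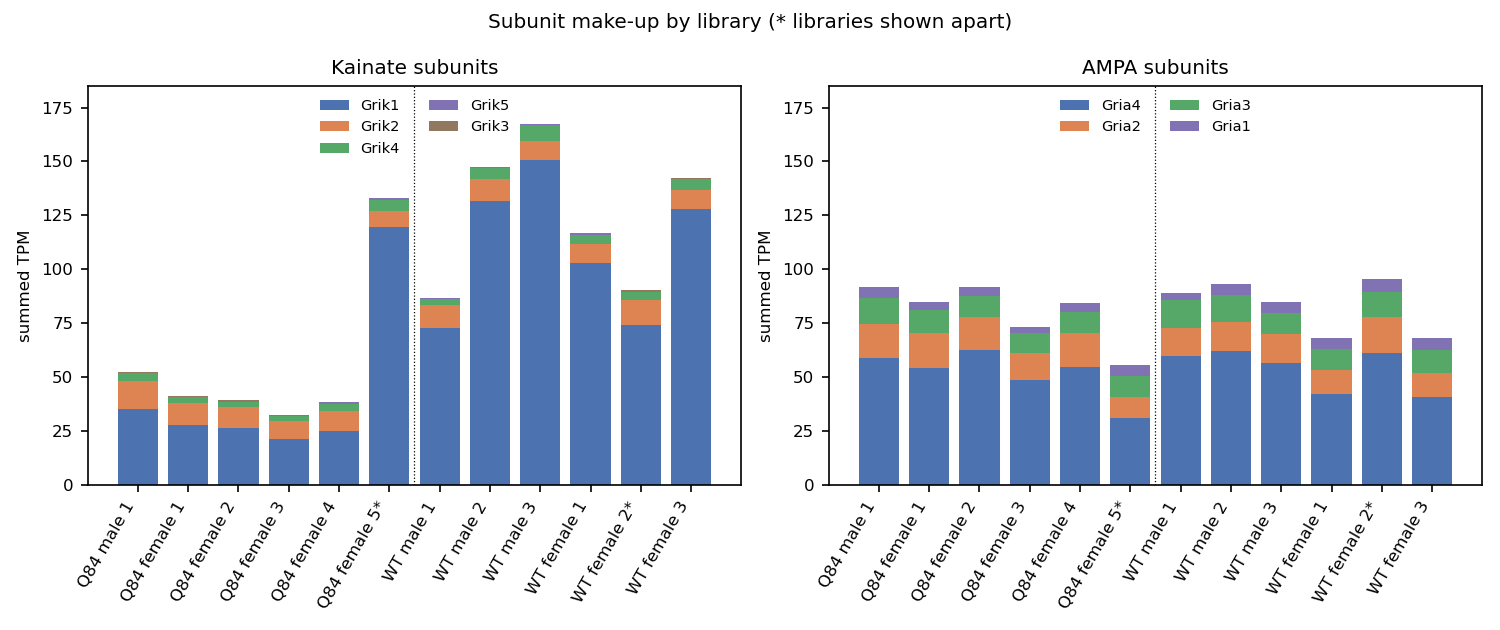
Subunit make-up per library, as summed TPM of the 5 kainate genes (left) and the 4 AMPA genes (right), with Q84 libraries left of the dotted line, WT libraries right of it, and an asterisk on the libraries shown apart. Grik1 fills most of each kainate bar and is the part that is small in 5 Q84 libraries, while the AMPA bars are of similar height in both groups and Gria4 fills most of each.

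By transcript, the low level of Grik1 was spread over its forms. Grik1-201, without the 45-base exon, had 19.5, 17.0, 14.5, 10.4 and 13.0 TPM in the Q84 male and Q84 females 1 to 4, against 35.3, 73.5, 85.1, 50.6 and 64.9 TPM in WT males 1 to 3 and WT females 1 and 3. Grik1-211, with that exon, averaged 6.48 ± 1.79 TPM in Q84 and 31.2 ± 6.06 TPM in WT (SD, n = 5 each). For both forms every Q84 library of the 5 was below every WT library of the 5. The transcripts Grik1-205 and Grik1-208, annotated as retaining an intron, did the same, with 2.80 ± 0.546 TPM in Q84 and 13.5 ± 3.35 TPM in WT for the first of these (SD, n = 5 each), and 1.66 ± 0.219 TPM in Q84 and 5.51 ± 1.18 TPM in WT for the other (SD, n = 5 each). Grik1-211 took 30.5 ± 5.64% of the sum of Grik1-201 and Grik1-211 in Q84 and 34.2 ± 4.42% in WT (SD, n = 5 each), with overlapping groups, and 51.5% in the library labelled Q84 female 5.

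The higher Gria2 level was seen in both splice forms, although TPM of the whole gene overlapped (12.4 to 16.5 in Q84, 11.3 to 13.5 in WT). Outside these forms, Gria2-206, annotated as retaining an intron, averaged 0.584 TPM in Q84 and 1.19 TPM in WT. Gria2-203 (0.197 against 0.427 TPM), Gria2-204 (0.482 against 0.538 TPM) and Gria2-208 (0.0290 against 0.204 TPM) also averaged lower in Q84 than in WT. Gria2-207, annotated like Gria2-206, went the other way, with 0.212 TPM in Q84 and 0.166 TPM in WT. So did Gria2-205, with 0.0655 TPM in Q84 and 0.0577 TPM in WT. For each of these minor transcripts the groups overlapped. Flip transcripts had 8.65, 8.44, 8.08, 6.10 and 8.61 TPM in the Q84 male and Q84 females 1 to 4, against 5.02, 5.09, 5.29, 5.87 and 5.06 TPM in WT males 1 to 3 and WT females 1 and 3. Flop transcripts averaged 5.65 ± 0.402 TPM in Q84 and 4.65 ± 0.637 TPM in WT (SD, n = 5 each). Neither overlapped between the 5 and 5 libraries, although Q84 female 3 was close to WT female 1 for flip. Flip was 3.90 TPM in Q84 female 5 and 7.66 TPM in WT female 2, and flop 4.4955 and 6.13 TPM. Flip took 58.4 ± 3.56% of flip and flop TPM in Q84 and 53.2 ± 4.49% in WT (SD, n = 5 each), and these shares overlapped. The flip transcript Gria2-202 is 4026 bases long and the flop transcript Gria2-201 is 10371 bases long, and how far reads in the longer end set the split was not tested.

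**Figure D4:**
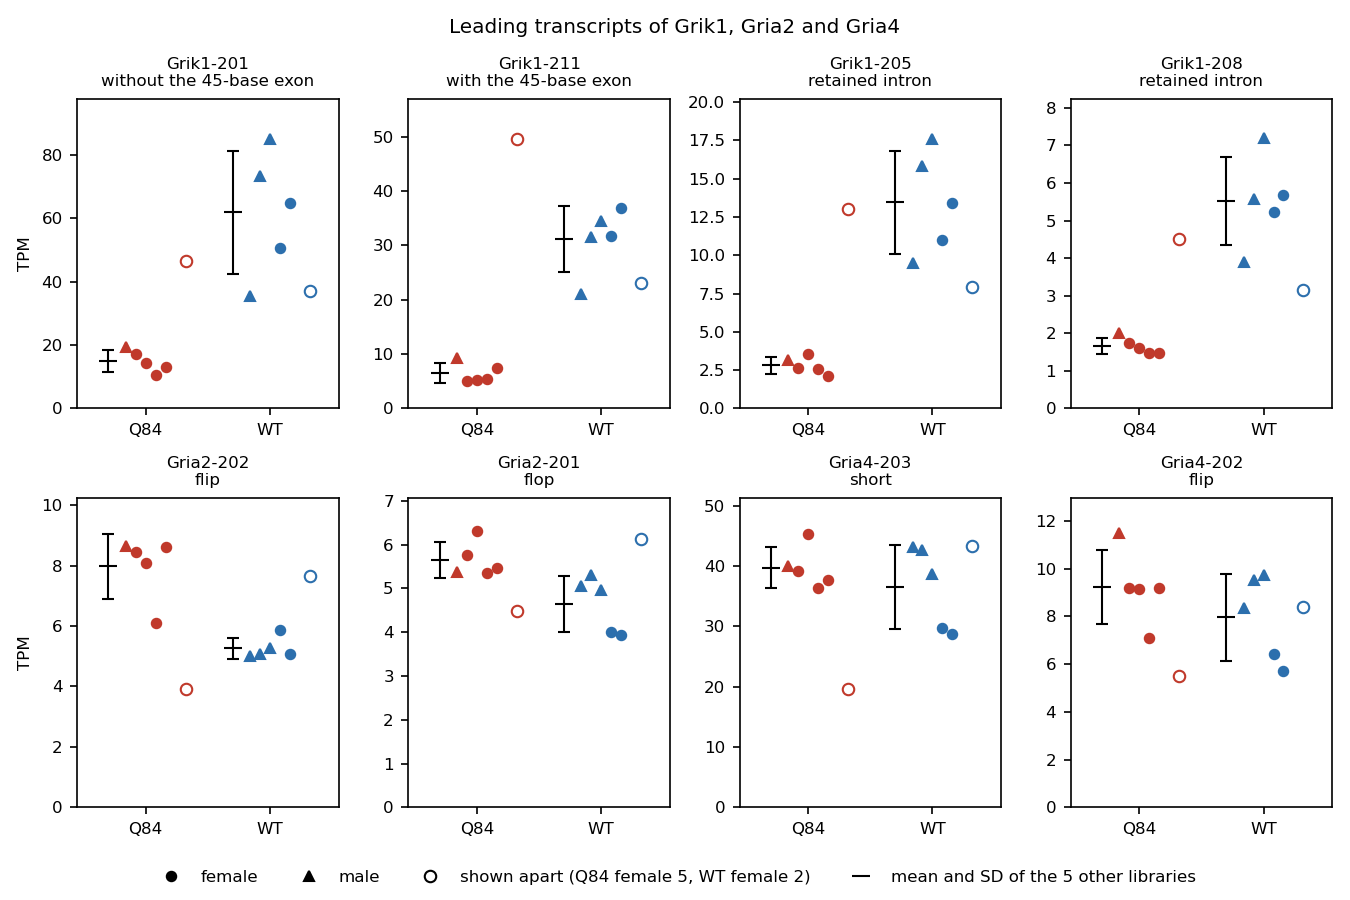
TPM of the leading transcripts of Grik1 (top row) and of Gria2 and Gria4 (bottom row) in each library, on axes from 0, with Q84 left and WT right and symbols as in the plot of CPM. All 4 Grik1 transcripts are lower in the 5 Q84 libraries than in the 5 WT libraries, both Gria2 forms are higher, and the Gria4 transcripts overlap.

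Other AMPA genes differed in which form they used. Flip made up 36.1 ± 4.11% of flip and flop TPM for Gria1 in Q84 and 37.5 ± 5.07% in WT (SD, n = 5 each), so flop was the more abundant form there. Gria3 was mostly flip, at 93.6 ± 4.78% in Q84 and 84.5 ± 8.32% in WT (SD, n = 5 each), with 69.8% in WT female 1 as the lowest share. Its flop TPM reached at most 0.671 in the 5 Q84 libraries and at least 0.700 in the 5 WT libraries, and most of it came from Gria3-206, annotated as subject to nonsense-mediated decay. For Gria4, flip made up 58.1 ± 3.72% in Q84 and 51.1 ± 2.697% in WT (SD, n = 5 each), and the groups overlapped.

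Most Gria4 RNA per length was the short transcript Gria4-203. It held 71.5 ± 2.80% of Gria4 TPM in Q84 and 70.2 ± 1.497% in WT (SD, n = 5 each), with 40.0, 39.1, 45.3, 36.4 and 37.7 TPM in the Q84 male and Q84 females 1 to 4, against 43.1, 42.6, 38.7, 29.7 and 28.7 TPM in WT males 1 to 3 and WT females 1 and 3. The groups overlapped, and WT females 1 and 3 again lay below the 5 Q84 libraries. The library labelled Q84 female 5 had 19.6 TPM and the library labelled WT female 2 had 43.4 TPM. The remaining Gria4 transcripts summed to 15.9 ± 2.46 TPM in Q84 and 15.5 ± 3.35 TPM in WT (SD, n = 5 each). Nearly all Grip2 TPM, at least 99.988% in each library, was assigned to Grip2-204, a transcript of 5520 bases annotated as subject to nonsense-mediated decay. The protein-coding Grip2-205 was listed at 0 in all 12 libraries. These 2 transcripts differ in exon 1 (228 bases in Grip2-204 and 193 in Grip2-205) and in exon 21, where Grip2-204 has 279 more bases, so the split between them rests on those stretches.

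Outside the members, genes of the same signalling were followed in 7 lists. Of the AMPA receptor auxiliary subunits, proteins that sit beside the channel and set its trafficking and gating, 17 of 18 were tested in the 10-library comparison and edgeR called 0, with 3 at an unadjusted p under 0.05, where 20.2% of all genes tested were under it. DESeq2 called 1 higher and limma-voom 0, and the median log2 fold change was -0.23, against 0.01 over all genes. Frrs1l, needed for AMPA receptor assembly, had 57.8 ± 3.03 CPM in Q84 and 49.4 ± 8.71 CPM in WT (SD, n = 5 each), a log2 difference of 0.34 (adjusted p = 0.0726, edgeR). Cacng5, a TARP auxiliary subunit, had a log2 difference of -0.45 (adjusted p = 0.174, edgeR), and Abhd6, a hydrolase that binds AMPA receptors and had 20.3 TPM, the highest of the list, had -0.32 (adjusted p = 0.176, edgeR).

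The kainate receptor auxiliary subunits and ligands gave 3 of 4 genes tested, of which edgeR, DESeq2 and limma-voom each called 0 with 1 at an unadjusted p under 0.05, and a median of 0.18. Neto2, which slows the closing of kainate receptors, had 81.5 ± 7.73 CPM in Q84 and 66.03 ± 9.91 CPM in WT (SD, n = 5 each), a log2 difference of 0.22 (adjusted p = 0.214, edgeR). C1ql3, a secreted synaptic protein, had -0.43 (adjusted p = 0.387, edgeR).

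Of 16 scaffold and trafficking genes 1 was called higher and 1 lower by edgeR, with a median of -0.17. Beside this, 1.52% of all genes tested were called higher and 4.93% lower. Dlg1, for the scaffold SAP97, had 39.1, 33.6, 31.5, 31.9 and 33.8 CPM in the Q84 male and Q84 females 1 to 4, against 29.3, 27.5, 23.2, 27.3 and 26.7 CPM in WT males 1 to 3 and WT females 1 and 3. It rose by a log2 change of 0.38 (SE 0.0927, adjusted p = 0.0326, edgeR), with no overlap. Arc, an activity-induced gene whose protein helps remove AMPA receptors from synapses, fell by a log2 change of -1.53 (SE 0.328, adjusted p = 0.0158, edgeR). It was scarce, at 0.113 ± 0.0445 CPM in Q84 and 0.410 ± 0.139 CPM in WT (SD, n = 5 each). The abundant Sdcbp (syntenin) and Nsf (the vesicle fusion ATPase) had -0.26 and -0.23, not called. The call for Dlg1 was lost when any one of Q84 male 1, Q84 females 1 and 4, WT male 2 and WT females 1 and 3 was left out (log2 fold change 0.27 to 0.42 over all 10 such fits, adjusted p up to 0.268), and that for Arc without WT female 1 or Q84 male 1 (-1.71 to -1.23, adjusted p up to 0.0965), by edgeR.

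The other ionotropic glutamate receptor genes gave 7 of 9 genes tested and 2 called, both higher, by all 3 tools, with a median of 0.02. By edgeR 1.52% of all genes tested were called higher. Grin3a, for the NMDA subunit GluN3A, had 16.4, 14.0, 17.5, 19.0 and 16.9 CPM in the Q84 male and Q84 females 1 to 4, against 11.2, 13.1, 12.1, 11.2 and 13.0 CPM in WT males 1 to 3 and WT females 1 and 3, without overlap. It rose by a log2 change of 0.46 (SE 0.111, adjusted p = 0.0284, edgeR). Grin1, the subunit that every NMDA receptor needs, had 0.23 (adjusted p = 0.694, edgeR). The Grin3a call was lost when any one of Q84 male 1, Q84 females 2 and 4, WT male 3 and WT females 1 and 3 was left out (0.41 to 0.51 over the 10 fits, adjusted p up to 0.126), by edgeR.

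Metabotropic glutamate receptors, which act through G proteins, gave 7 of 8 genes tested, with 0 called by edgeR (2 at an unadjusted p under 0.05), 1 higher by DESeq2 and 0 by limma-voom, and a median of -0.11. Grm5 had 1.82 ± 0.386 CPM in Q84 and 1.06 ± 0.103 CPM in WT (SD, n = 5 each), a log2 difference of 0.70 (adjusted p = 0.0745, edgeR). Grm4 had -0.72 (adjusted p = 0.200, edgeR). Grm7, the most abundant of the list, had -0.11 and Grm8 had 0.09, neither called.

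Among 10 genes of glutamate supply and clearance, edgeR called 1 lower and 0 higher, DESeq2 2 lower and limma-voom 0, with a median of -0.05. By edgeR 4.93% of all genes tested were called lower. Slc17a8, for the vesicular transporter VGLUT3, had 6.90, 9.38, 8.08, 8.29 and 7.58 CPM in the Q84 male and Q84 females 1 to 4, against 19.3, 25.2, 27.3, 8.82 and 33.7 CPM in WT males 1 to 3 and WT females 1 and 3. WT female 1 lay among the Q84 libraries and the other 4 WT libraries far above them. Slc17a8 fell by a log2 change of -1.51 (SE 0.332, adjusted p = 0.0259, edgeR), and 7 of the 10 fits without 1 library lost the call (those without Q84 male 1, without one of Q84 females 2 to 4, without WT male 2 or 3, and without WT female 3), with values from -1.91 to -0.92 and adjusted p up to 0.240 by edgeR. Slc17a6, for VGLUT2, the main vesicular glutamate transporter of sensory neurons, had 554 ± 47.4 CPM in Q84 and 470 ± 29.7 CPM in WT (SD, n = 5 each), a difference of 0.25 (adjusted p = 0.110, edgeR). Slc17a7, for VGLUT1, the vesicular transporter of large sensory neurons, was picked after its values were seen. It had 45.8 ± 8.27 CPM in Q84 and 78.3 ± 19.6 CPM in WT (SD, n = 5 each), without overlap in the 10 or the 12 libraries, and its log2 difference of -0.63 missed the threshold (SE 0.173, adjusted p = 0.0566, edgeR). Glul, the glutamine synthetase of satellite glia, had -0.27 (adjusted p = 0.312, edgeR). Of 3 genes of the RNA editing enzyme family, edgeR called 0 with 1 at an unadjusted p under 0.05, and DESeq2 and limma-voom called 0. Adarb1, which edits the Gria2 site that controls calcium entry, had 0.09 and Adar 0.12, and Adarb2 had 0.61 (adjusted p = 0.242, edgeR).

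With 12 libraries as labelled, edgeR and limma-voom called 0 genes in all 7 lists, with 10 of 64 genes at an unadjusted p under 0.05 by each (14.3% of all genes by edgeR), and DESeq2 called 1 scaffold gene higher and 1 supply gene lower. These lists were drawn up with earlier results of the same data known.

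The defining markers of sensory neurons were abundant in every library, and none of the 9 was at 0. They summed to 6596 to 7146 CPM in the 5 Q84 libraries and 6697 to 8822 CPM in the 5 WT libraries, and 1 of 9, the transcription factor gene Pou4f1, was called, at -0.78 (adjusted p = 0.0123, edgeR, lost without WT female 3 or without Q84 male 1, adjusted p up to 0.0912). Like Grik1, the summed non-peptidergic, peptidergic and large myelinated neuron markers each lay lower in the 5 Q84 than in the 5 WT libraries, without overlap. By edgeR 7 of 8 non-peptidergic nociceptor markers were called lower, beside 4.93% of all genes tested. All 8 had a negative log2 fold change (median -1.24), among them Mrgprd at -2.51 and P2rx3 at -1.21. Their sum was 461 to 654 CPM in Q84 and 721 to 1387 CPM in WT. It was 1367 CPM in the library labelled Q84 female 5 and 1025 CPM in that labelled WT female 2. Of 7 peptidergic nociceptor markers 4 were called lower and all 7 had a negative value (median -0.57). Their sum was 1388 to 2050 CPM in Q84 and 2571 to 3208 CPM in WT, with 2580 CPM in Q84 female 5 and 2166.5 CPM in WT female 2. Of 9 large myelinated neuron markers 3 were called lower and 8 had a negative value (median -0.42). Pvalb went the other way, at 0.58 (adjusted p = 0.2255, edgeR). Their sum was 1452 to 1910 CPM in Q84 and 1934 to 2572 CPM in WT, with 3064 CPM in Q84 female 5 and 2193.7 CPM in WT female 2. Of these calls, those of Plxnc1 and Adcyap1 were lost without WT female 3 or without Q84 male 1, those of Lpar5 and Ntrk2 without WT female 3, that of Tac1 without Q84 male 1, and that of Nefl in 8 of the 10 fits without 1 library, where its log2 fold change was -0.59 to -0.42.

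In bulk tissue, fewer cells of a type and less RNA per cell cannot be told apart, and the part of these markers in the Grik1 and Grik4 values was not tested. Among other cells of the ganglion, edgeR called 0 of 5 satellite glia markers (sums of 1843 to 2208 CPM in Q84 and 2039 to 2403 CPM in WT) and 0 of 7 Schwann cell myelin markers (1799 to 3334 CPM in Q84 and 2019 to 3504 CPM in WT). Spinal cord markers summed to 18.3 to 50.4 CPM in Q84 and 29.9 to 45.9 CPM in WT, and none of the 10 was at 0 in every library. Most of this sum was Aqp4, at a mean of 16.4 of 27.6 CPM in Q84 and 28.1 of 36.5 CPM in WT. The motor neuron gene Chat reached at most 0.229 CPM and the oligodendrocyte genes Mog and Mobp 2.08 and 15.3 CPM, both in Q84 female 4. Mobp also had 5.49 CPM in WT female 1 and 4.61 CPM in WT male 1, against 0.282 to 1.18 CPM in the other 9 libraries. Without Q84 female 4 Grik1 was still called and Gria2 was not. The water channel gene Aqp4, which glia of the ganglion can express as well, was the 1 marker of that list called, at -0.72 (adjusted p = 0.00762, edgeR, lost without WT female 3, adjusted p up to 0.0508). The part of spinal cord tissue in the members' values was not tested.

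The comparison of 4 male with 8 female libraries, with genotype as a covariate, was not used in choosing the members. Their log2 differences, male over female, ran from -0.32 for Grik3 to 0.26 for Gria4, with -0.01 (SE 0.539) for Grik1, 0.03 for Gria2 and 0.08 for Grik4. By edgeR 0 of 10 were called (adjusted p = 1 for each) and 0 had an unadjusted p under 0.05, DESeq2 and limma-voom called 0, and the background was 0.0636% of 18875 genes. Only 1 of the 4 male libraries was Q84, so a sex difference within Q84 could not be tested.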

How the data were processed

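Poly(A) RNA of dorsal root ganglia from 12 mouse libraries was sequenced, per the labels' protocols. Each deposited table gives estimated counts, effective lengths and TPM per transcript. Per the submitters' processing notes, STAR 2.7.10b, kallisto 0.46.2 and GRCm39 were used, with no roles stated. Depth was 66490481 to 86891563 deposited estimated counts per library. The authors' estimated counts of reads shared between transcripts are model estimates, so levels of single transcripts are less certain than gene sums.

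Transcripts were named from GENCODE M21 (GRCm38) by identifier without version, which matched 98.3% of them, and 0.751 to 0.804% of counts per library had no match and were left out. Counts were summed per gene, rounded to whole numbers, scaled with TMM and filtered with filterByExpr. They were tested with edgeR 4.0.16 by its quasi-likelihood test with sex and genotype, with Benjamini-Hochberg adjustment over all genes and a threshold of 0.05. DESeq2 1.42.0 and limma-voom (limma 3.58.1), no low-count filter, DESeq2 size factors in edgeR, length-scaled TPM counts, a replicate block, females alone and each library left out were tried as alternatives. Deposited TPM was summed per gene to compare genes with each other. On simulated data with the 10 libraries' means, changes were placed only in genes above a floor of mean counts, so recovery for scarce genes was not tested. There 18313 genes were fitted and edgeR recovered 38% of 1.5-fold, 70% of 2-fold, 96% of 4-fold and 100% of 8-fold changes, with 9 false calls among 161.

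The members, the lists and the 10-library comparison were chosen with earlier results of these data known. Every member was described. Of each other list the text names the genes called in the 10-library fit (the 6 of smallest p where more passed), otherwise up to 2 of smallest p, and the 2 of highest mean TPM. Of the marker lists, some of these are given by count only, and 1 gene called in the list of other ionotropic receptors is not reported here. Genes of like pattern were ranked by the root mean square difference of log2(CPM + 0.5), each gene centred on its own mean, over the 12 libraries, among 10425 genes with a mean of at least 5 CPM.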

Additional observations from a re-analysis of the deposited data

Results flagged for a closer look

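In 96 sets of 5 or 6 libraries (the 5 Q84 females, the 6 libraries labelled Q84 and the 6 labelled WT, for each gene level, sum, share and splice form), the highest or lowest library was compared with the rest by Dixon's 95% critical value. This gave 15 flags of a library far from the others. Chance flags about 1 in 20 independent groups, but these sets share libraries and linked measures, so the flags are not independent. The library labelled Q84 female 5 accounts for 12 of them. Among the Q84 females and among all Q84 libraries it stood apart for Grik1 (289.6 CPM, next 64.8 CPM among the females and 76.6 CPM among all), for Grik4 (20.73 CPM, next 11.4 CPM), for the kainate sum (133.1 TPM), for the share of Grik1 in it (89.98%) and for the kainate over AMPA ratio (2.388). Among all libraries labelled Q84 it was also the low one for Gria4 (76.44 CPM, next 115 CPM) and for the share of Gria4 in AMPA TPM (55.4%, next 63.8%). This is a library whose Atxn3-205 level goes against its label.

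Q84 female 3 had the lowest Gria3 flip level of the Q84 females (4.426 TPM, next 5.30 TPM). Q84 male 1 had the lowest Grip2 level of the libraries labelled Q84 (542.6 CPM, next 733 CPM), and it is the only Q84 male. The library labelled WT female 2, the other library that goes against its label, had the highest Gria2 flip level of the libraries labelled WT (7.657 TPM, next 5.87 TPM).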

How the results depend on the processing

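Over the single members, 500 of 540 alternatives kept the direction and the side of the threshold, 27 turned the direction of a value, 4 lost a call and 9 gained one. With the 12 libraries as labelled, where 0 members and 1 gene in all were called, DESeq2 called 620 genes, no low-count filter 15, the replicate block 639 (1 member, Grik1 at -1.81, adjusted p = 0.00605) and females alone 0. Leaving out 1 library gave 0 to 1 members and 0 to 1082 genes. The top of both is without Q84 female 5, where Grik1 was called at -1.88 (adjusted p = 0.000461, edgeR). With 10 libraries, where 2 members and 1208 genes were called, DESeq2 called 1934 genes, the replicate block 701 (1 member, since Gria2 at 0.38 had adjusted p = 0.0995), females alone called 5 members, and leaving out 1 library gave 1 to 4 members (lowest without Q84 female 4, WT female 1 or WT female 3, highest without WT male 1) and 681 (without Q84 male 1) to 1978 genes (without WT male 1). DESeq2 also called Grik4 (-0.62, adjusted p = 0.0126), and females alone Grik4 (-0.67, adjusted p = 0.0192). Male against female, with 12 genes, gave 21 by DESeq2 and 6 to 23 without 1 library.

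The values that turned were those with 12 libraries of Gria3 (0.003177 by limma-voom, 0.005711 with no filter and 0.006443 with length-scaled counts), of Grik5 (-0.005176, length-scaled, against 0.34) and of Grik3 (-0.08633, females alone), and those with 10 libraries of Grik5 (-0.1014, length-scaled, against 0.24), Gria3 (-0.008167, replicate block) and Grik3 (-0.0254, females alone), and Grik1 in male against female (0.1076, limma-voom). Without 1 library the ranges that crossed 0 were, with 12 libraries, -0.08657 to 0.1745 for Grik3 and -0.03608 to 0.03636 for Gria3, with 10 libraries -0.03978 to 0.1983 for Grik3 and -0.02948 to 0.06394 for Gria3, and in male against female -0.1801 to 0.2635 for Grik1, -0.07441 to 0.2131 for Grik4, -0.02654 to 0.1429 for Gria2 and -0.3387 to 0.03185 for Grip2. The cause was not tested. Replicate numbers gave no evidence of pairing, with 9 correlations of same-numbered libraries' deviations from -0.189 to 0.306. In both block fits Q84 female 4 is alone with its number, and with 12 libraries so is Q84 female 5. For Grik3 and Grik5, with 42 to 126 counts per library, counting error adds to the spread between libraries.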

Other observations

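The genes whose pattern over the 12 libraries was most like that of Grik1, by the root mean square difference of their centred log2 levels, were Rnf112 (0.230), Ppp1r1a (0.237) and Lypd6b (0.259), where the median gene of 10425 differed by 1.02. Rnf112 encodes a ring finger protein of neurons and had 6.86 ± 1.051 CPM in Q84 and 29.2 ± 12.6 CPM in WT (SD, n = 5 each). Ppp1r1a, for an inhibitor of protein phosphatase 1, had 8.65 ± 1.36 CPM in Q84 and 30.4 ± 5.56 CPM in WT (SD, n = 5 each). Lypd6b, for a Ly6 family protein, had 4.19 ± 0.545 CPM in Q84 and 16.5 ± 2.01 CPM in WT (SD, n = 5 each). In the library labelled Q84 female 5 all 3 lay at WT levels (29.4 CPM for Rnf112, 28.4 CPM for Ppp1r1a and 16.5 CPM for Lypd6b), and in the library labelled WT female 2 they lay between the groups' means (17.1, 19.7 and 11.7 CPM, in the same order of genes). All 3 were picked for their likeness to Grik1 over the 12 libraries. Their levels in both groups and in these libraries therefore follow from the choice and are no separate result.

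For Gria4 the most alike genes were Hoxa9 (0.105), Tifa (0.117) and Pcdh18 (0.119), where the median gene differed by 0.305. Hoxa9, a homeobox gene that marks position along the body axis, had 53.7 ± 2.79 CPM in Q84 and 48.5 ± 9.76 CPM in WT (SD, n = 5 each). The library labelled Q84 female 5 had 39.6 CPM of Hoxa9 and was low for Gria4 too, which follows from the choice by pattern. Tifa, for an adaptor of inflammatory signalling, had 35.0 ± 2.96 CPM in Q84 and 29.8 ± 5.599 CPM in WT (SD, n = 5 each). Pcdh18, for a protocadherin, had 10.9 ± 0.710 CPM in Q84 and 9.65 ± 1.84 CPM in WT (SD, n = 5 each).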
